A study of Mus musculus with 2 samples.

Results

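The genes described here encode the secreted and cell-surface proteins of the gastric mucus: the gastrokines Gkn1, Gkn2 and Gkn3, the trefoil factors Tff1 and Tff2, the gel-forming mucins Muc5ac and Muc6, the membrane mucin Muc1 and the surface protein Psca. They were taken by name, without a filter on their values but with earlier results of these data known. They make up 9 of the 38087 Ensembl genes listed in each deposited table. All 9 were listed above 1 RPKM, the floor of the tables (RPKM: reads per kilobase of exon and M reads), in both libraries. RNA had been prepared from sorted parietal cells, which secrete gastric acid, of C57BL/6 mice fed a high fat diet (HFD) and of control mice, with 1 library for each diet. The labels used here give neither the time on the diet, the make-up of either feed, the age and number of the mice nor the sorting markers. With 1 library a group there was no replicate and no test, so each difference below is between these 2 libraries, called HFD cells and control cells, and not between the diets. The HFD library held about 25.5 M reads and 13431 listed genes, and the control library about 9.84 M reads and 15045 listed genes.

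Gastrokines are small secreted proteins with a BRICHOS domain, a fold that assists protein folding, and are among the most abundant products of the surface (pit) mucous cells of the stomach. Trefoil factors are compact, disulfide-bonded peptides that are secreted together with mucins and promote the repair of the epithelium. In the stomach, Tff1 is made with Muc5ac by the pit cells, whereas Tff2 is made with Muc6 by the mucous neck cells and the deeper glands; in humans, GKN2 is found bound to TFF1. None of the 9 is a product that defines the parietal cell, which is known by its proton pump subunits Atp4a and Atp4b.

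The gastrokine genes lie next to each other on mouse chromosome 6, and the largest differences of the group in both directions were found there. The 250 bases before each RefSeq transcription start (GRCm38.p6, read 5′ to 3′ on the strand of the gene) end at starts that can differ from the gene ends given further on, and are shown because Gkn1 and Gkn2 stood higher and Gkn3 lower in HFD cells. Capitals mark every match, on either strand, to 4 motifs. These were the letters TATAAA of a TATA box, the letters GATAAG of a site for GATA factors, the letters TGACTCA of a site for AP-1 factors and the letters TGTTTAC of a site for forkhead factors.
Gkn1, chr6:87350916-87351165, minus strand: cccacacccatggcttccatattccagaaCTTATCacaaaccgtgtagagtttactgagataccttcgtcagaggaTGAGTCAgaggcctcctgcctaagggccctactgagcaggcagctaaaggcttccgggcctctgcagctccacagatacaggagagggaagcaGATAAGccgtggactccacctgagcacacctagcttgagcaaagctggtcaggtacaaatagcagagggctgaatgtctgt
Gkn2, chr6:87373115-87373364, plus strand: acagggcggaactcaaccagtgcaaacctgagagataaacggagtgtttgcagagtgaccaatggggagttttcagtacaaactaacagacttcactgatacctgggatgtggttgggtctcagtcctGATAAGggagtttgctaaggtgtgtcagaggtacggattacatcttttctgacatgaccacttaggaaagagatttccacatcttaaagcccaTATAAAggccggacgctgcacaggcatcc
Gkn3, chr6:87388936-87389185, minus strand: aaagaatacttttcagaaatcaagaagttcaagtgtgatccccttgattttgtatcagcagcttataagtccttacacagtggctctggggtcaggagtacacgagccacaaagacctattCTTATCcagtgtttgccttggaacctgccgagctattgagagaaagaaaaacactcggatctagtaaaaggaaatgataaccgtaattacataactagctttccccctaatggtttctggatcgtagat

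Each of these promoters held the letters GATAAG. In Gkn1 they began 81 bases before the start on the strand of the gene and 221 bases before it on the other strand. In Gkn2 they began 122 bases before the start on the strand of the gene, and in Gkn3 129 bases before it on the other strand. The motif was present in 6.55% of 32851 RefSeq promoter windows of the same length. TATAAA was found for Gkn2 alone of the gastrokines, 29 bases before the start, and in 12.4% of all windows. TGACTCA was found in the Gkn1 window alone, 174 bases before the start on the other strand, and in 4.46% of all windows. TGTTTAC, held by 3.17% of windows, was in none of these 3 sequences. No match overlapped another. The motifs were chosen after the sequences had been seen, and a match describes letters, not binding. Promoter sequences matched for 5 of the 9 genes, the others being Muc6 and Muc1. The Muc6 window held no match to the 4 motifs. The Muc1 window held TATAAA alone, 31 bases before the start, so neither held GATAAG.

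Several mucus genes stood above the proton pump in RNA from the sorted cells: Gkn1, Gkn2 and Tff2 exceeded Atp4b in HFD cells, and Gkn1 and Tff2 did so in control cells. In RNA from a cell population, fewer cells of a type and less RNA per cell cannot be told apart. The 9 genes together held 15.1% of the RPKM of all protein-coding genes in HFD cells and 6.54% in control cells. Of the RPKM of all genes, noncoding ones included, they held 3.36% in HFD cells and 2.10% in control cells. All protein-coding genes summed to 289707 RPKM in HFD cells and 355045 RPKM in control cells. The summed level of the 9 genes was 43693 RPKM in HFD cells and 23233 RPKM in control cells. Gkn1 alone made up 49.7% of this sum in HFD cells and 21.6% in control cells. Without Gkn1 and Gkn2 the other 7 genes summed to 13865 RPKM in HFD cells and 14806 RPKM in control cells. Shares also depend on the pepsinogen gene Pgc of chief cells, which held 15.7% of protein-coding RPKM in HFD cells and 28.8% in control cells. Atp4b stood at 5639 RPKM in HFD cells and 4375 RPKM in control cells, and Atp4a at 4997 RPKM in HFD cells against 4324 RPKM in control cells.

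**Figure D1:**
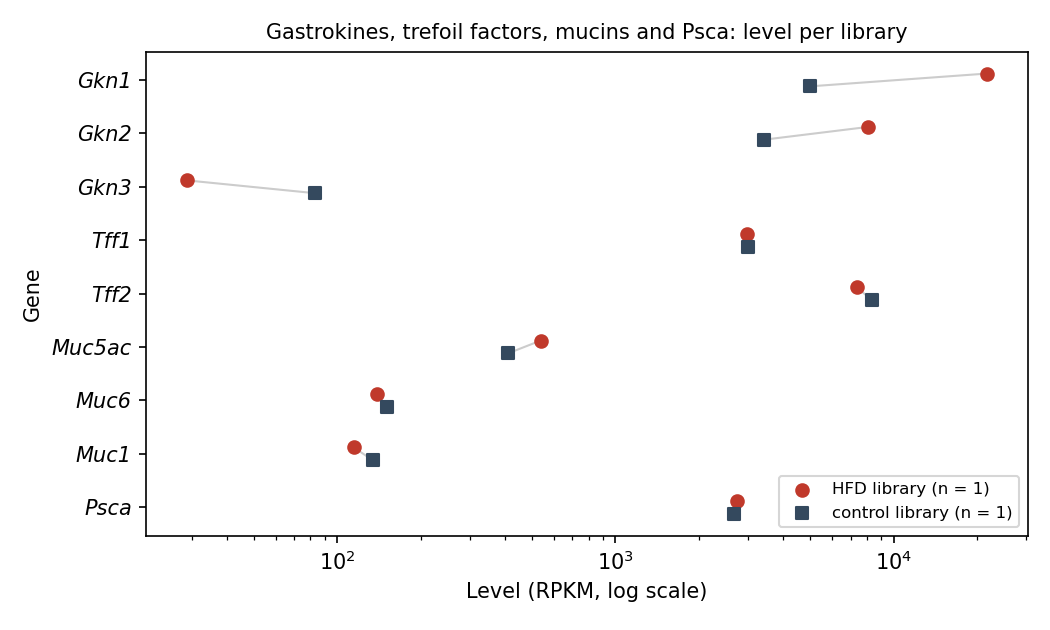
Level of each gene (RPKM, log axis) in HFD cells (circles) and in control cells (squares), 1 library each, without error bars because there were no replicates. Gkn1, Gkn2 and Muc5ac lie to the right in HFD cells and Gkn3 to the left, and the other 5 pairs of points lie close together.

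Gkn1 and Gkn2 were over 2-fold higher and Gkn3 over 2-fold lower in HFD cells, whereas none of the other 6 genes passed 2-fold. On the log2(RPKM + 1) scale, 2 of 9 genes were thus over 2-fold higher, against 12.5% of all 16037 genes listed in either library and 8.02% of 11976 protein-coding ones. A further 1 of 9 was over 2-fold lower, against 23.9% of all genes and 20.1% of protein-coding ones. Counted by sign alone, 4 of 9 genes were higher, against 44% of all genes and 44% of protein-coding ones. Among the 238 protein-coding genes listed in both libraries with a mean of at least 100 RPKM, 13.9% were over 2-fold higher, 8.82% over 2-fold lower and 51.3% higher by sign alone. The median difference of the 9 genes was -0.02, beside -0.13 over all listed genes and -0.11 over protein-coding genes. As deposited the group thus had no common direction, but its count by sign moved with the processing. After scaling to the protein-coding total, 8 of the 9 were higher and 1 lower. Once GC content and exon length trends were removed, 7 were higher and 2 lower. When the 20 most abundant genes did not enter the scale, 2 were higher and 7 lower. Counting intervals below are approximate 95% intervals from estimated reads and do not cover variation between mice.

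Gkn1, which encodes gastrokine 1 of the pit cells (ENSMUSG00000030050; chromosome 6, 87345650 to 87350942, mm10; 6 exons), stood at 21736 RPKM in HFD cells and 5021 RPKM in control cells. The ratio was 4.33 (interval 4.29 to 4.37), from about 692685 reads in HFD cells and 61723 in control cells. Gkn1 ranked at place 2 among protein-coding genes in HFD cells, below Pgc alone, and at place 6 in control cells. Of the 238 abundant protein-coding genes, 7 had a higher ratio than Gkn1.

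Gkn2 (ENSMUSG00000030049; chromosome 6, 87373357 to 87379497), the gastrokine whose human counterpart binds TFF1, stood at 8091 RPKM in HFD cells and 3406 RPKM in control cells. The ratio was 2.38 (2.34 to 2.41), and 19 of the 238 abundant genes had a higher one. Its rank was 3 in HFD cells and 11 in control cells. When the total left after removing the 20 most abundant genes set the scale, which shifts HFD values by -0.57 (log2), Gkn2 was still higher but no longer past 2-fold (0.68 on the log2(RPKM + 1) scale), while Gkn1 stayed past it (1.54). The pit cell markers outside the 9 genes had a median of 0.30 as deposited, and of -0.27 to 0.59 over 4 other scalings. The value of -0.27 came from the same scaling without the 20 most abundant genes. The part of pit cell RNA in the Gkn1 and Gkn2 values was not tested.

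Gkn3 (ENSMUSG00000030048; chromosome 6, 87383256 to 87388935), which in the mouse is a product of mucous neck cells, was the least abundant of the 9 genes. It stood at 28.7 RPKM in HFD cells and 83.0 RPKM in control cells, 2.89 times lower (interval 2.59 to 3.22). About 627 reads from HFD cells and 699 from control cells lay behind these values, the smallest numbers of the group. Gkn3 was more than 2-fold lower under each of the 10 alternative settings, with values of -2.05 to -1.16 on the log2(RPKM + 1) scale. Those that set a minimum of 5 RPKM or kept genes listed in both only filter genes. They leave the value of Gkn3 unchanged and could not differ. Neck cell markers outside the 9 genes had a median of -0.40, and the part of neck cell RNA in the Gkn3 value was not tested.

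**Figure D2:**
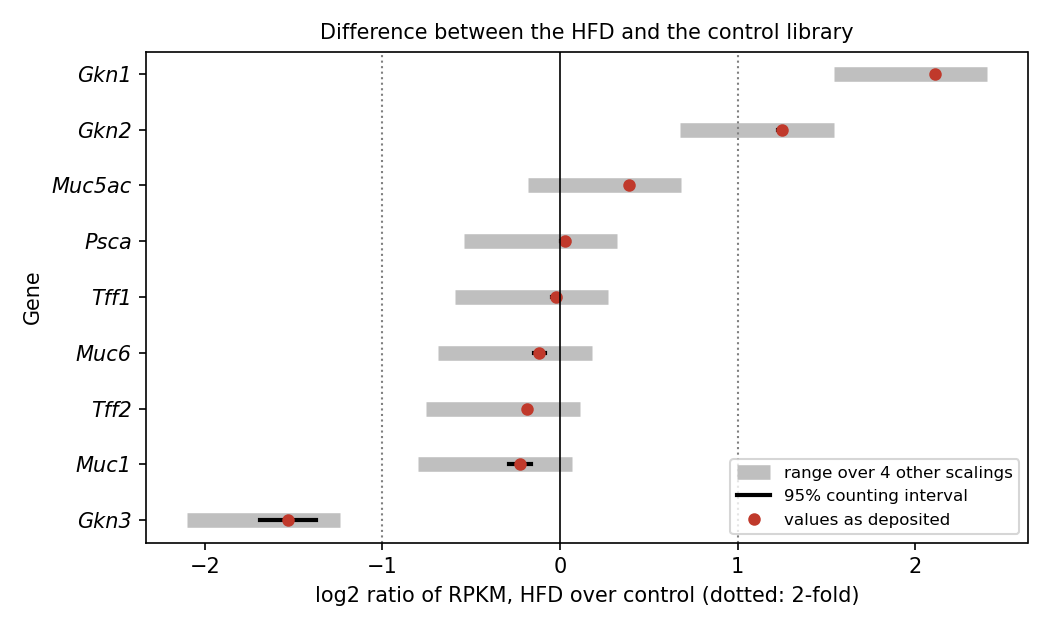
log2 ratio of RPKM in HFD cells over control cells for each gene (points), with the 95% counting interval (black) and the range over 4 other scalings of the HFD library (grey). Gkn1 and Gkn2 lie right of 0 and Gkn3 left of it over their whole grey range, and the grey range of the other 6 genes crosses 0.

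The trefoil factors differed little. Tff1 (ENSMUSG00000024032; chromosome 17, 31161395 to 31165277), the peptide of the pit cells, stood at 2960.1 RPKM in HFD cells and 3003 RPKM in control cells. Its ratio of 0.986 had an interval of 0.970 to 1.00. A noncoding gene on the opposite strand, Gm15318, shares 221 exon bases with Tff1 and stood at 152 RPKM in HFD cells and 127 RPKM in control cells. Reads of the overlap may be mixed, since whether counting used strand is not stated.

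Tff2 (ENSMUSG00000024028; chromosome 17, 31141049 to 31144282), the spasmolytic polypeptide of the neck cells, stood at 7355 RPKM in HFD cells and 8349.9 RPKM in control cells, with a ratio of 0.881 (0.871 to 0.890). It was the most abundant of the 9 genes in control cells and followed Gkn1 and Gkn2 in HFD cells. Both trefoil factors were slightly lower as deposited but higher when the HFD values were rescaled to the total of protein-coding genes, so neither is given a direction.

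The gel-forming mucins were measured on long transcripts and thus on many reads. Muc5ac, the mucin of the surface gel (ENSMUSG00000037974; chromosome 7, 141788972 to 141819231; 49 exons), stood at 538 RPKM in HFD cells and 411 RPKM in control cells. Its ratio was 1.31 (1.30 to 1.32), and it turned to -0.18 on the log2(RPKM + 1) scale under the rescaling without the 20 most abundant genes. Muc6, the mucin of the neck cells and glands (ENSMUSG00000048191; chromosome 7, 141633456 to 141655319; 33 exons), stood at 139 RPKM in HFD cells and 151 RPKM in control cells, a ratio of 0.923 (0.905 to 0.942). Reads from the repeats of these mucins can map to several places, and how the authors treated such reads is not stated.

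The cell-surface members were close to equal. Muc1, a membrane mucin that shields the apical surface (ENSMUSG00000042784; chromosome 3, 89229057 to 89233381), stood at 115 RPKM in HFD cells and 134 RPKM in control cells, a ratio of 0.854 (0.819 to 0.892). Psca, a glycolipid-anchored protein of the Ly6 family (ENSMUSG00000022598; chromosome 15, 74714839 to 74717069), stood at 2730.1 RPKM in HFD cells and 2675 RPKM in control cells, a ratio of 1.02 (1.01 to 1.04). The sign of the Muc6, Muc1 and Psca differences changed with the scaling.

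The levels within a library spanned 757-fold in HFD cells and 101-fold in control cells. In the HFD library the order was Gkn1, Gkn2, Tff2, Tff1, Psca, Muc5ac, Muc6, Muc1 and Gkn3. The control library had Tff2 first, followed by Gkn1 and Gkn2, and the same order from Tff1 on. Neighbours in the order closest to each other were Tff1 and Psca (1.08 times apart) in HFD cells, and both this pair and Muc6 with Muc1 (1.12 times each) in control cells. Their counting intervals did not overlap, but without replicates it is not known whether such neighbours differ beyond the spread between mice.

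**Figure D3:**
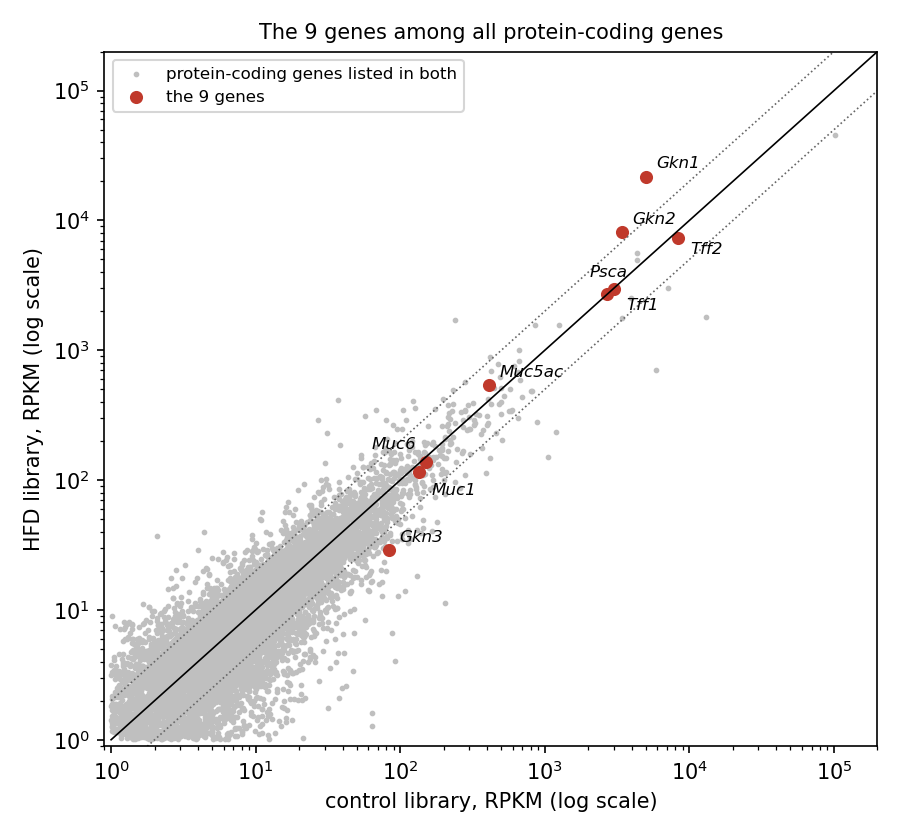
RPKM in HFD cells (vertical, log axis) against RPKM in control cells (horizontal, log axis) for protein-coding genes listed in both (grey) and the 9 genes (red). The solid line marks equal levels and dotted lines 2-fold: Gkn1 and Gkn2 lie above the upper dotted line, Gkn3 below the lower one and the other 6 between.

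Ratios between genes of one library do not depend on how the libraries are scaled to each other. Those of genes of unlike length can still change when a trend on exon length is removed. Gkn1 stood at 2.69 times Gkn2 in HFD cells and 1.47 times in control cells. Gkn1 over Gkn3 was 757 in HFD cells and 60.5 in control cells, a 12.5-fold difference (11.2 to 14.0). Gkn2 over Gkn3 was 282 in HFD cells and 41.0 in control cells, 6.87-fold apart (6.15 to 7.66). The 3 neighbouring gastrokine genes therefore stood in quite different proportions in the libraries.

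Pairs made by the pit cells did not keep one proportion. Gkn1 over Tff1 was 7.34 in HFD cells and 1.67 in control cells. Gkn2 over Tff1 was 2.73 in HFD cells and 1.13 in control cells. Gkn1 over Muc5ac was 40.4 in HFD cells and 12.2 in control cells, whereas Tff1 over Muc5ac was 5.50 in HFD cells and 7.31 in control cells. Psca over Tff1 was close in both, at 0.922 in HFD cells and 0.891 in control cells. On the log2(RPKM + 1) scale, Tff1 differed by -0.02 and Muc5ac by 0.39 as deposited. With a trend on exon length removed these differences were 0.32 and 0.30, so the change in Tff1 over Muc5ac depended on that trend.

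Among the gland products, Tff2 over Muc6 was 52.9 in HFD cells and 55.5 in control cells, a quotient of 0.954 (0.933 to 0.976). On the log2(RPKM + 1) scale, Tff2 differed by -0.18 and Muc6 by -0.11 as deposited. With a trend on exon length removed, Tff2 was at 0.19 and Muc6 at -0.18, so their closeness depended on that trend. Gkn3 did not follow them: Gkn3 over Muc6 was 0.207 in HFD cells and 0.551 in control cells. Of surface against gland products, Muc5ac over Muc6 was 3.87 in HFD cells and 2.73 in control cells, a quotient of 1.42 (1.39 to 1.45). Tff1 over Tff2 was 0.402 in HFD cells and 0.360 in control cells. Gkn1 over Tff2 was 2.96 in HFD cells and 0.601 in control cells, so the more abundant of this pair differed between the libraries.

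Relative to Atp4b of the parietal cell, Gkn1 stood at 3.85 in HFD cells and 1.15 in control cells, and Gkn2 at 1.43 in HFD cells and 0.779 in control cells. Muc5ac stood at 0.0954 of Atp4b in HFD cells and 0.0938 in control cells. The remaining 6 genes were lower relative to Atp4b in HFD cells, with quotients of 0.268 for Gkn3 and 0.663 to 0.792 for Muc1, Tff2, Muc6, Tff1 and Psca.

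**Figure D4:**
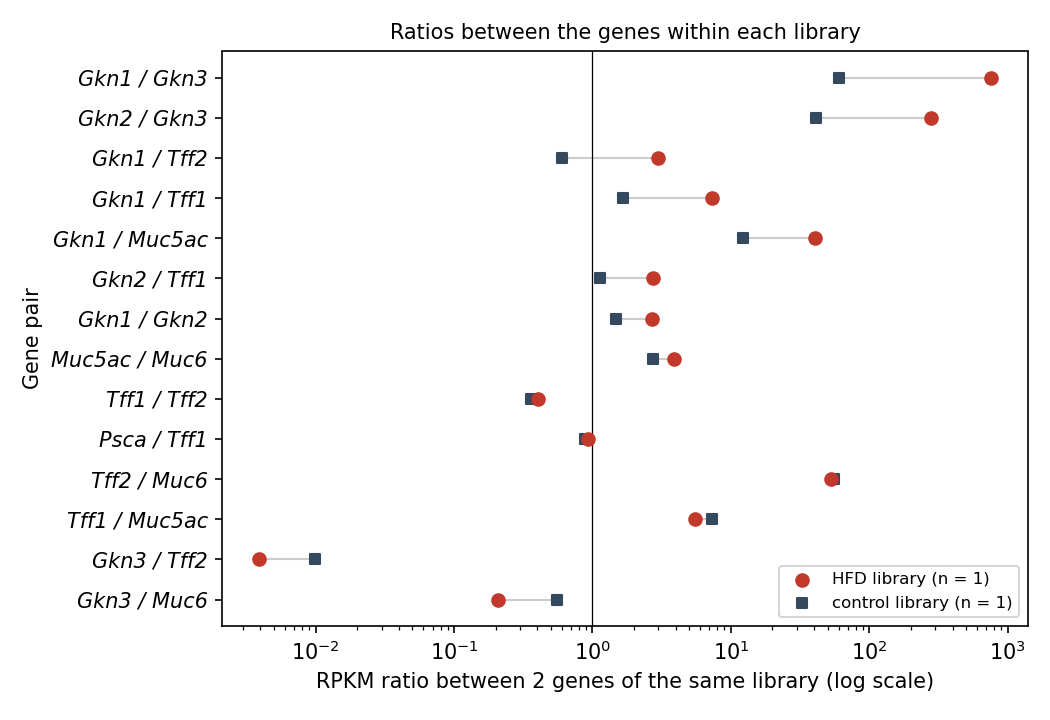
RPKM of one gene over another in the same library (log axis) for 14 pairs, in HFD cells (circles) and in control cells (squares). Pairs with Gkn1 or Gkn2 on top lie further right in HFD cells, Gkn3 over Tff2 and over Muc6 lie further left, and Psca over Tff1 and Tff2 over Muc6 nearly coincide.

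The genes sit in 3 local clusters and 2 single places. Gkn1, Gkn2 and Gkn3 lie within one stretch of chromosome 6, with 22.4 kb between Gkn1 and Gkn2 and 3.76 kb between Gkn2 and Gkn3. The flanking genes were low: Antxr1 stood at 1.13 RPKM in HFD cells and 3.59 RPKM in control cells, and Bmp10 was listed at 0 in both. Tff1 and Tff2 are 17.1 kb apart on chromosome 17, and Tff3, 11.4 kb from Tff2 and known from intestinal goblet cells, was listed at 0 in HFD cells and at 3.82 RPKM in control cells. On chromosome 7, Muc2 lies between Muc6 and Muc5ac, 35.0 and 34.3 kb away, and Muc5b lies 19.8 kb beyond Muc5ac. Muc2, the intestinal gel mucin, and Muc5b, the airway one, were listed at 0 in both libraries. Slurp1, a relative of Psca 7.25 kb away on chromosome 15, stood at 8.63 RPKM in HFD cells and 2.07 RPKM in control cells. Nearer to Psca were Them6, at 3.11 RPKM in HFD cells and 7.54 RPKM in control cells, and Jrk. The latter stood at 4.82 RPKM in HFD cells and 3.42 RPKM in control cells.

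Of 14 other mucin and related genes found in the tables, 9 were listed at 0 in both libraries, among them Muc2, Muc3, Muc3a, Muc5b and Muc19. Only Cd164, a small sialomucin, exceeded 5 RPKM, at 63.0 RPKM in HFD cells and 38.5 RPKM in control cells. Muc4 was listed at 1.46 RPKM in HFD cells and at 0 in control cells, and Mcam, an adhesion molecule, at 1.43 RPKM in HFD cells against 4.08 RPKM in control cells. Of the 5 genes listed in either library 2 were higher, and their median was -1.07 (log2(RPKM + 1) scale). Gel-forming mucins other than Muc5ac and Muc6 were thus not listed above the floor.

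Relatives by protein family did not share one direction. Of 4 listed genes with a BRICHOS domain outside the gastrokines, 2 were higher and 2 lower (median 0.02; -0.55 to 0.31 over 4 other scalings). Itm2b stood at 259.7 RPKM in HFD cells and 210.4 RPKM in control cells, Itm2c at 56.1 RPKM in HFD cells against 67.6 RPKM in control cells, and Itm2a, listed at 0 in control cells, at 8.59 RPKM in HFD cells. Bricd5 was listed at 0 in HFD cells and at 1.43 RPKM in control cells. Of 11 listed Ly6/uPAR relatives of Psca, 4 were higher and 7 lower (median -0.29). Lypd8, a surface protein that binds bacterial flagella in the mouse colon, stood at 415 RPKM in HFD cells and 36.9 RPKM in control cells, a ratio of 11.2 (10.3 to 12.4). Ly6a, the lowest of the list, was listed at 0 in HFD cells and at 14.7 RPKM in control cells. On the log2(RPKM + 1) scale its difference of -3.97 was larger in size than that of Lypd8 (3.46). Ly6e was at 101 RPKM in HFD cells against 104 RPKM in control cells, Ly6c1 at 13.0 RPKM in HFD cells against 16.1 RPKM in control cells, Lypd6b at 11.2 RPKM in HFD cells against 15.1 RPKM in control cells and Lynx1 at 5.94 RPKM in HFD cells against 10.6 RPKM in control cells.

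Genes that fold and glycosylate mucins were balanced: 14 of 30 were higher and 16 lower, with a median of -0.05. Over 2-fold higher were 3 of 30, against 12.5% of all listed genes and 8.02% of protein-coding ones. Over 2-fold lower were 0 of 30, against 23.9% of all listed genes and 20.1% of protein-coding ones. Gcnt4, counted among the 3, was listed at 0 in control cells and at 1.29 RPKM in HFD cells. The number higher was 6 to 22 under 4 other scalings. Agr2, a disulfide isomerase needed for mucin production in the mouse gut, stood at 194 RPKM in HFD cells and 226 RPKM in control cells. Gcnt3, which branches mucin glycans, stood at 102 RPKM in HFD cells and 101 RPKM in control cells, and Pdia3, an isomerase of the endoplasmic reticulum, at 116 RPKM in HFD cells against 131 RPKM in control cells. Ern2, a stress sensor of mucous epithelia, stood at 58.1 RPKM in HFD cells and 88.6 RPKM in control cells. The highest ratio was that of Fut9, a fucosyltransferase, at 10.3 RPKM in HFD cells and 2.71 RPKM in control cells. Creb3l4, a membrane-bound transcription factor, was the lowest on the log2(RPKM + 1) scale, at 20.9 RPKM in HFD cells and 39.1 RPKM in control cells. By ratio the sialyltransferase gene St3gal4 was lower still among genes listed in both, at 1.80 RPKM in HFD cells and 3.52 RPKM in control cells (0.513, interval 0.396 to 0.674).

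Other proteins of mucus layers were higher in 6 of 8 listed cases (median 0.42), but in 3 to 7 under other scalings. Fcgbp, which is cross-linked into mucus, stood at 37.0 RPKM in HFD cells and 2.07 RPKM in control cells. Dmbt1, a scavenger receptor-like mucus glycoprotein, stood at 106 RPKM in HFD cells and 72.2 RPKM in control cells. Ctse, the pit cell protease cathepsin E, stood at 348 RPKM in HFD cells and 282 RPKM in control cells. Zg16, a lectin of goblet cells, was the lowest at 2.71 RPKM in HFD cells and 6.07 RPKM in control cells.

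Regulators of mucous genes were near balance, with 9 of 21 higher and a median of -0.05 (1 to 14 higher under other scalings). Foxq1, which the mouse stomach needs for Muc5ac, stood at 35.4 RPKM in HFD cells and 57.9 RPKM in control cells, a ratio of 0.611 (0.583 to 0.641), while Muc5ac had a ratio of 1.31. Elf3 stood at 149 RPKM in HFD cells against 159 RPKM in control cells, Klf4 at 114 RPKM in HFD cells against 79.1 RPKM in control cells, Xbp1 at 147 RPKM in HFD cells against 102 RPKM in control cells, and Gata4 at 72.4 RPKM in HFD cells against 89.9 RPKM in control cells. Pdx1, a factor of the antrum, was the highest by ratio at 3.38 RPKM in HFD cells and 1.10 RPKM in control cells. Of 11 genes reported as receptors or signals of trefoil factors, 5 were higher and 6 lower (median -0.16). Cxcr4 and Lingo2, for which Tff binding has been reported, were listed at 0 in both libraries. Itgb1 stood at 62.0 RPKM in HFD cells and 45.3 RPKM in control cells, Erbb3 at 29.8 RPKM in HFD cells against 37.2 RPKM in control cells, F2rl1 at 20.2 RPKM in HFD cells against 27.8 RPKM in control cells, Erbb2 at 18.8 RPKM in HFD cells against 31.8 RPKM in control cells and Tgfa at 12.3 RPKM in HFD cells against 7.79 RPKM in control cells.

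Markers of several gastric cell types were present in both libraries and differed between them. Pit cell markers outside the 9 genes were higher in 11 of 15 cases (median 0.30; 6 to 13 higher under other scalings), none was at 0, and their summed level was 3193 RPKM in HFD cells and 2382 RPKM in control cells. Mucl3, a mucin-like surface protein, stood at 888 RPKM in HFD cells and 417 RPKM in control cells, a ratio of 2.13. Krt20, a keratin of mature surface cells, stood at 20.8 RPKM in HFD cells and 4.61 RPKM in control cells, a ratio of 4.51 (3.64 to 5.71). Gsta1 stood at 387 RPKM in HFD cells and 233 RPKM in control cells, and Tspan8 at 389.8 RPKM in HFD cells against 319.8 RPKM in control cells. The other 4 of the 15 were lower: Foxq1, the lowest of the list, had a ratio of 0.611, Sult1c2 stood at 147 RPKM in HFD cells and 199.96 RPKM in control cells (0.735), Anxa10 at 288 RPKM in HFD cells and 325 RPKM in control cells (0.886) and Fbp2 at 26.4 RPKM in HFD cells and 26.8 RPKM in control cells (0.983, interval 0.873 to 1.11).

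Neck cell markers outside the 9 genes were higher in 2 of 9 cases (median -0.40), with Cftr at 0 in both libraries. Their sum of 45852 RPKM in HFD cells and 102514 RPKM in control cells was almost wholly Pgc, which chief cells also make. A4gnt, the enzyme that caps Muc6 glycans, stood at 70.9 RPKM in HFD cells and 62.3 RPKM in control cells. Creb3l1 stood at 37.9 RPKM in HFD cells against 51.5 RPKM in control cells, Spink4 at 64.5 RPKM in HFD cells against 24.1 RPKM in control cells, and Wfdc2 at 1.79 RPKM in HFD cells against 15.2 RPKM in control cells.

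Parietal cell markers were higher in 14 of 19 cases (median 0.43; 8 to 16 higher under other scalings), with a sum of 14298 RPKM in HFD cells and 11446 RPKM in control cells and Cckbr at 0 in HFD cells. Chief cell markers were higher in 1 of 6 cases (median -0.90), with a sum of 48583 RPKM in HFD cells and 106844 RPKM in control cells, Lipf at 0 in both libraries and Cpb1 at 0 in HFD cells. Most of the chief cell sum was Pgc, at 45624 RPKM in HFD cells and 102292 RPKM in control cells. Pgc is counted in both the neck and the chief cell list, so these sums are not separate observations. The gene Gif, at 397 RPKM in HFD cells and 494 RPKM in control cells, is counted in both the parietal and the chief cell list. Endocrine cell markers were higher in 2 of 10 cases (median -2.07), with a sum of 1214 RPKM in HFD cells and 8304 RPKM in control cells, Tph1 and Vwa5b2 at 0 in HFD cells and Neurod1 at 0 in control cells. The part of these cell types in the values of the 9 genes was not tested.

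**Figure D5:**
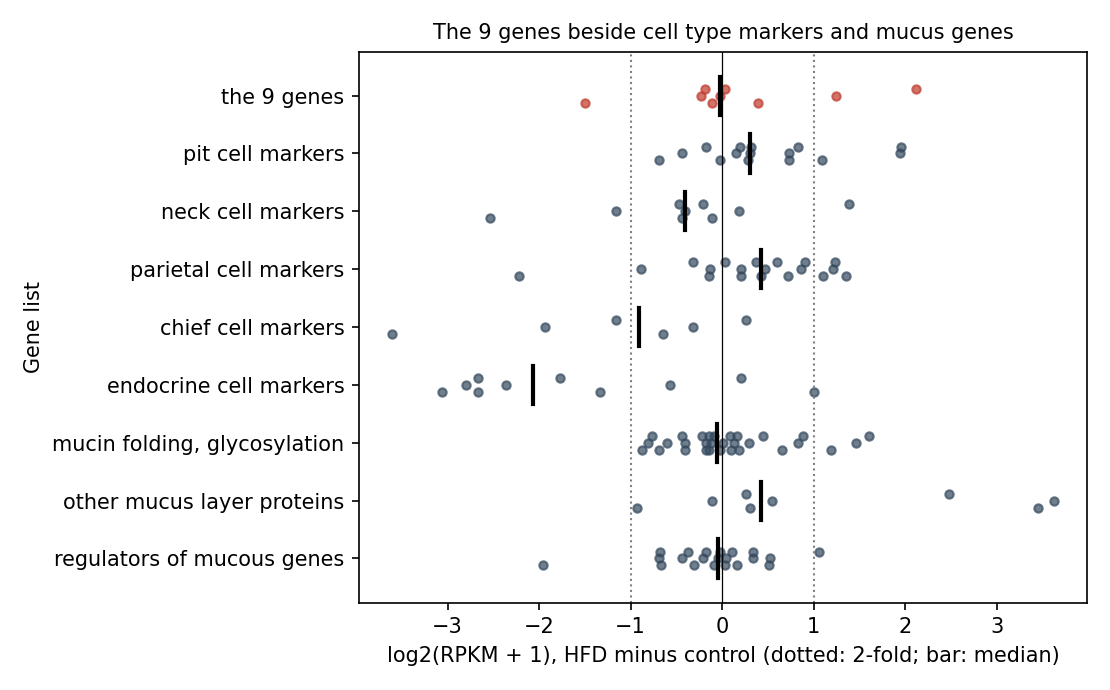
Difference on the log2(RPKM + 1) scale, HFD minus control, for the 9 genes (red, top) and for the listed genes of 8 lists of cell type markers and mucus genes (dark points), with each list's median as a bar and 2-fold as dotted lines. The 9 genes have a median of -0.02 and span -1.50 to 2.11, the pit cell markers have a median of 0.30 and the endocrine markers one of -2.07.

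Genes nearest to each member in level were sought among protein-coding genes outside the 9 that were listed in both libraries, by the distance of their log2 RPKM over the 2 libraries. Outside the 9, no gene lay close to Gkn1: the nearest, Atp4b, was 1.96 away, its level of 5639 RPKM in HFD cells being far below that of Gkn1 (21736 RPKM). Gkn2 also had Atp4b nearest, at 0.63. Gkn3 had Sprr2b (31.2 RPKM in HFD cells and 78.1 RPKM in control cells) and Aplp1 (29.8 RPKM in HFD cells and 75.5 RPKM in control cells) at a distance of 0.15 each, followed by Hist1h3b. Tff1 and Psca, themselves neighbours in the order of levels, both had Chia1, at 0.46 and 0.58, and Tff2 had Atp4b, at 1.01. Muc5ac was nearest to Rplp1 (0.14), Muc6 to Aldoa (0.04) and Muc1 to Pdia3 (0.04). With 2 libraries such likeness describes levels only.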

How the data were processed

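Total RNA of sorted cells was depleted of ribosomal RNA and made into Ion Total RNA-Seq libraries, per the labels' protocols. Bedtools 2.25.0 and the mm10 build are named in the submitters' processing notes; neither an aligner nor a counting rule or annotation release is stated there. The authors deposited 1 value per gene in a column headed RPKM, whose range (largest 18.22) and spacing show log2 of RPKM without a pseudocount, with genes at or below 1 RPKM listed as 0.

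Values were turned back to RPKM and used as deposited. Gene symbols, exon lengths and positions were those of GENCODE M21 (GRCm38, the same assembly as mm10); 36308 identifiers matched and 1779 did not. Promoter windows came from RefSeq on GRCm38.p6.

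Depth was estimated from the step between low values of single-exon genes, as 25.5 M (HFD library) and 9.84 M reads (control library). Within 0.005 of a whole step at up to 12 steps lay 90 of 180 values and 251 of 712. For multi-exon genes, to which all 9 belong, these were 0 of 4 and 36 of 198, so their read numbers are approximate. Reads were RPKM times exon length times depth; ratio intervals are exact conditional binomial ones at 95%, and those of quotients of ratios combine them on the log scale. They cover counting error only.

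The scale for lists was log2(RPKM + 1), and called means past 2-fold. No test was made. The 9 genes and the 16 lists were chosen with earlier results of these data known. Named from each list, other than those of parietal, chief and endocrine cells, were its 4 most abundant genes. From the same lists came the genes with the highest and the lowest difference on the log2(RPKM + 1) scale. These were sought among genes listed in both, given 50 estimated reads or more. The parietal, chief and endocrine cell lists are given by counts, medians, sums, genes at 0 and the shared genes Gif and Pgc. For each of the 9 genes the 3 nearest in level were sought. Muc2, Muc3, Muc3a, Muc5b, Muc13, Muc19, Slurp1, Ly6a, Ly6d, Them6, Jrk, St3gal4, Gcnt4, Rfx6, Sult1c2, Anxa10, Fbp2, Antxr1, Bmp10, Cxcr4, Lingo2, Gm15318 and markers at 0 were named after their values were seen. Alternatives were 4 scalings, other pseudocounts and minimums, and trends on exon length and on GC content of transcripts. Calculations used Python 3.11.15, numpy 2.4.6, pandas 2.3.3, scipy 1.17.1 and statsmodels 0.14.6, and were tested on simulated data.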

Additional observations from a re-analysis of the deposited data

How the results depend on the processing

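The scaling between the libraries moved most values. The median of the 9 genes on the log2(RPKM + 1) scale was -0.59 after scaling to a total that leaves out the 20 most abundant genes, 0.018 after scaling to the median of protein-coding genes, 0.27 after scaling to their total, 0.30 with a trend on exon length removed and 0.42 with trends on GC content and exon length removed, against -0.02 as deposited. It was -0.068 over the 8 genes other than Gkn1, an alternative chosen after seeing the data. After the first of these scalings, 1 gene was over 2-fold higher instead of 2, since Gkn2 no longer passed. The share held by the 9 genes was 2.30 times as large in HFD cells as in control cells by protein-coding RPKM, 1.60 times by RPKM of all genes, 2.20 times by estimated reads and, chosen after seeing the data, 1.95 times without Pgc. The cause of these differences was not tested. Gkn1 ranged from 1.54 to 2.41, Gkn2 from 0.68 to 1.56 and Gkn3 from -2.05 to -1.16 over 10 alternatives, all without a change of sign. The alternatives that only filter genes, by a minimum of 5 RPKM or a listing in both, cannot change the value of a single gene. Leaving out a replicate was impossible with 1 library per diet. No genome was used, so GC content came from transcript sequences.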

Other observations

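Some genes of the lists outside the rule for named genes differed by more than Gkn2 and were chosen after their values were seen. They went in both directions. Among the lower ones were Ly6a (-3.97), Rfx6 (-1.95), Ly6d (-1.68) and Muc13 (-1.27 on the log2(RPKM + 1) scale). These were listed at 0 in HFD cells and at 14.7, 2.87, 2.19 and 1.41 RPKM in control cells. The genes that follow were higher. Capn9, a stomach calpain of the pit cell list, stood at 67.5 RPKM in HFD cells and 16.8 RPKM in control cells, a ratio of 4.03 (interval 3.63 to 4.47), close to that of Gkn1. Clca1, a metalloprotease of goblet cell mucus, stood at 20.3 RPKM in HFD cells and 2.82 RPKM in control cells, a ratio of 7.19 (5.89 to 8.81). C1galt1c1, the chaperone of the enzyme that builds the core of mucin glycans, stood at 45.4 RPKM in HFD cells and 15.9 RPKM in control cells, a ratio of 2.86 (2.49 to 3.30).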
